A study of Mus musculus with 25 samples.

Results

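A set of 9 genes that hold hematopoietic stem cells in, or guide them to, their bone marrow niche was followed by RNA-seq in the HSLAM population (LSK+ CD150+ CD48-). These were the chemokine receptor Cxcr4, the integrin chains Itga4, Itgb1, Itgal and Itgb2, the selectin ligand Selplg, the hyaluronan receptor Cd44, the adhesion ligand Vcam1 and the tetraspanin Cd9. They were taken by name, and all 9 were found among the 23116 genes of the table. HSLAM cells were sorted from bone marrow of adult male C57BL/6 mice, 8 to 12 weeks old, that all carried the floxed alleles (f/f) with loxP sites around exon 1 of Znf143. Littermates without Cre (Znf143 f/f x Rosa26ERT2-Cre-, here Znf143 f/f, labelled WT) were compared with littermates with Cre (Znf143 f/f x Rosa26ERT2-Cre+, here Znf143 -/-). All of them received the middle dosage of tamoxifen by intraperitoneal injection for 10 days, so the control libraries are floxed and tamoxifen-treated but lack Cre. The Rosa26 promoter drives Cre in cells of all tissues, so deletion was not restricted to blood cells. There were 3 libraries per genotype, and the comparison asked how loss of ZNF143, a zinc finger factor that binds promoters together with CTCF, changed transcript levels.

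Stem cells are retained in the marrow by CXCR4, which reads a CXCL12 gradient laid down by stromal cells, and by adhesion receptors that grip the niche. The integrin VLA-4 (ITGA4 with ITGB1) binds VCAM-1 on marrow endothelium and stroma, and LFA-1 (ITGAL with ITGB2) binds ICAM molecules. PSGL-1, the product of Selplg, and CD44 support rolling on selectins and binding to hyaluronan, and CD9 is a tetraspanin that organises integrins in the membrane. None of these 9 proteins was used to sort the cells.

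None of the 8 members tested passed an adjusted p of 0.05 between genotypes on the main scale, where 5.99% of all genes tested did, and 4 of them had libraries that did not overlap, 3 higher and 1 lower in Znf143 -/- cells. Over all genes tested, libraries did not overlap for 15.4% (higher) and 15.3% (lower). Itgal and Itgb2, both chains of LFA-1, were higher in all 3 Znf143 -/- libraries, at 2.25 times and 2.00 times the control mean. Cd9 was higher in all 3 at 1.15 times the control mean, and Itga4, the alpha chain of VLA-4, was lower in all 3 at 83.0% of it, though on FPKM as deposited the libraries of Cd9 and Itga4 overlapped. Cxcr4, Itgb1, Selplg and Cd44 had overlapping libraries, and their means lay between 90.9% and 112% of the control. Vcam1 was close to absent in both genotypes.

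Values below are FPKM (fragments per kilobase of gene, divided by the library total) rescaled between libraries by the median ratio over genes, since the third Znf143 -/- library had been divided by the total of the second. Its ratio of fragments on genes to that divisor was 1.1967, against 0.9979 to 1.001 in the other 5 libraries. Fragments on genes ranged from 38643255 to 57895793 per library. Zfp143, the mouse gene for ZNF143, was at 3.07, 4.43 and 3.66 FPKM in the control and at 0.155, 0.298 and 0.270 FPKM in the Znf143 -/- libraries, a log2 fold change of -3.50 (SE 0.24, adjusted p = 0.001). Exons of AA474408 overlap it on the opposite strand. The labels call the deleted genotype a CTCF knockout, while Ctcf was at 31.0 ± 1.33 FPKM (SD, n = 3) in the control and 28.4 ± 2.86 FPKM (SD, n = 3) in the other libraries, a difference that did not pass the test (adjusted p = 0.468). Of 10 stem cell markers, all 10 had a mean of at least 1 FPKM, and 2 were called in opposite directions. Ly6a, which encodes Sca-1, rose from 239 to 288 FPKM in control to 550 to 602 FPKM in Znf143 -/- libraries (log2 fold change 1.13, adjusted p = 0.005), and Mecom, a transcription factor of stem cells, fell from 9.01 to 9.33 FPKM to 6.01 to 6.76 FPKM (log2 fold change -0.55, adjusted p = 0.021). Kit, Hlf and Hoxb5 were lower in every Znf143 -/- library and did not pass the test (adjusted p = 0.066, 0.056 and 0.166). Within each genotype a pair of libraries lay close together. Over genes with 100 to 300 fragments, the robust SD of the log2 difference was 0.21 between control replicates 1 and 3 and 0.23 between Znf143 -/- replicates 2 and 3, against 0.54 to 0.68 for the other pairs within a genotype and about 0.16 from counting alone. The close pairs differed by more than counting noise, so all 6 libraries were kept. The p-values take them as independent, and calls are also given with each close pair averaged into 1 value. In these bulk libraries, fewer cells that express a gene and less RNA per cell cannot be told apart.

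The promoters of Itga4 and Cd9 are shown because these 2 members had libraries that did not overlap and had an entry in the RefSeq promoter table. The windows hold 250 bases before and 50 bases after the annotated start, on GRCm38.p6, 5′ to 3′ on the strand of the gene, and capitals mark a motif match.
Itga4 (chr2:79255176-79255475, plus strand): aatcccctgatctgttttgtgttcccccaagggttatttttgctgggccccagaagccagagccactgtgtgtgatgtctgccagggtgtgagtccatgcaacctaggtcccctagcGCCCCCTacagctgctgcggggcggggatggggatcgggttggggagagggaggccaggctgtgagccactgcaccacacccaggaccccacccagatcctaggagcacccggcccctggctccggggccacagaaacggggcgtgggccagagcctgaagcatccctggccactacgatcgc
Cd9 (chr6:125494711-125495010, minus strand): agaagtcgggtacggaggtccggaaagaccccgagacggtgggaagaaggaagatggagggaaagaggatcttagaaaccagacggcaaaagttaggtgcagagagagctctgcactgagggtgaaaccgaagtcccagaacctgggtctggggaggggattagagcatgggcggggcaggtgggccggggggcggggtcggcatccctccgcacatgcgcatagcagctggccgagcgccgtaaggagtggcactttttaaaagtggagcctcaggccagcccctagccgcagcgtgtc
A set of 3 short motifs were searched on both strands, of which ACTACAA and TTCCCAG are parts of the known ZNF143 motif and AGGNGGC is part of the CTCF motif. The Itga4 window held AGGNGGC on the opposite strand, 133 bases before the start, and the Cd9 window held no match. Of the other members with an entry, Itgb1 held AGGNGGC 50 bases before the start, Cd44 held TTCCCAG 208 bases before the start, both on the opposite strand, and Cxcr4 held none of the motifs. Over all 32851 promoter windows of the table, AGGNGGC was found in 29.4%, TTCCCAG in 11.1% and ACTACAA in 3.24%. A match describes letters in the window and is not evidence of binding.

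The members spanned more than 3 orders of magnitude in level. The mean of Cd9 over all 6 libraries was above that of 97.6% of the 19279 genes tested. In control cells Cd9 was the highest at 156 ± 6.98 FPKM (SD, n = 3). Selplg at 54.3 ± 2.11, Itgb1 at 44.6 ± 2.56 and Cd44 at 13.6 ± 1.63 FPKM (SD, n = 3) followed, each separated from the next by libraries that did not overlap. Cxcr4 at 8.72 ± 0.30, Itgb2 at 6.58 ± 3.52 and Itga4 at 4.28 ± 0.04 FPKM (SD, n = 3) came next, and the Itgb2 libraries overlapped those of Cxcr4 and spanned the level of Itga4. Itgal was at 0.627 ± 0.090 and Vcam1 at 0.080 ± 0.036 FPKM (SD, n = 3), the lowest of the 9. In Znf143 -/- cells the order was the same except that Itgb2, at 13.2 ± 1.44 FPKM (SD, n = 3), stood beside Cd44 at 12.4 ± 0.17 FPKM (SD, n = 3), and these 2 overlapped. Selplg at 51.9 ± 2.45 FPKM and Itgb1 at 49.9 ± 5.76 FPKM (SD, n = 3) also overlapped there.

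**Figure D1:**
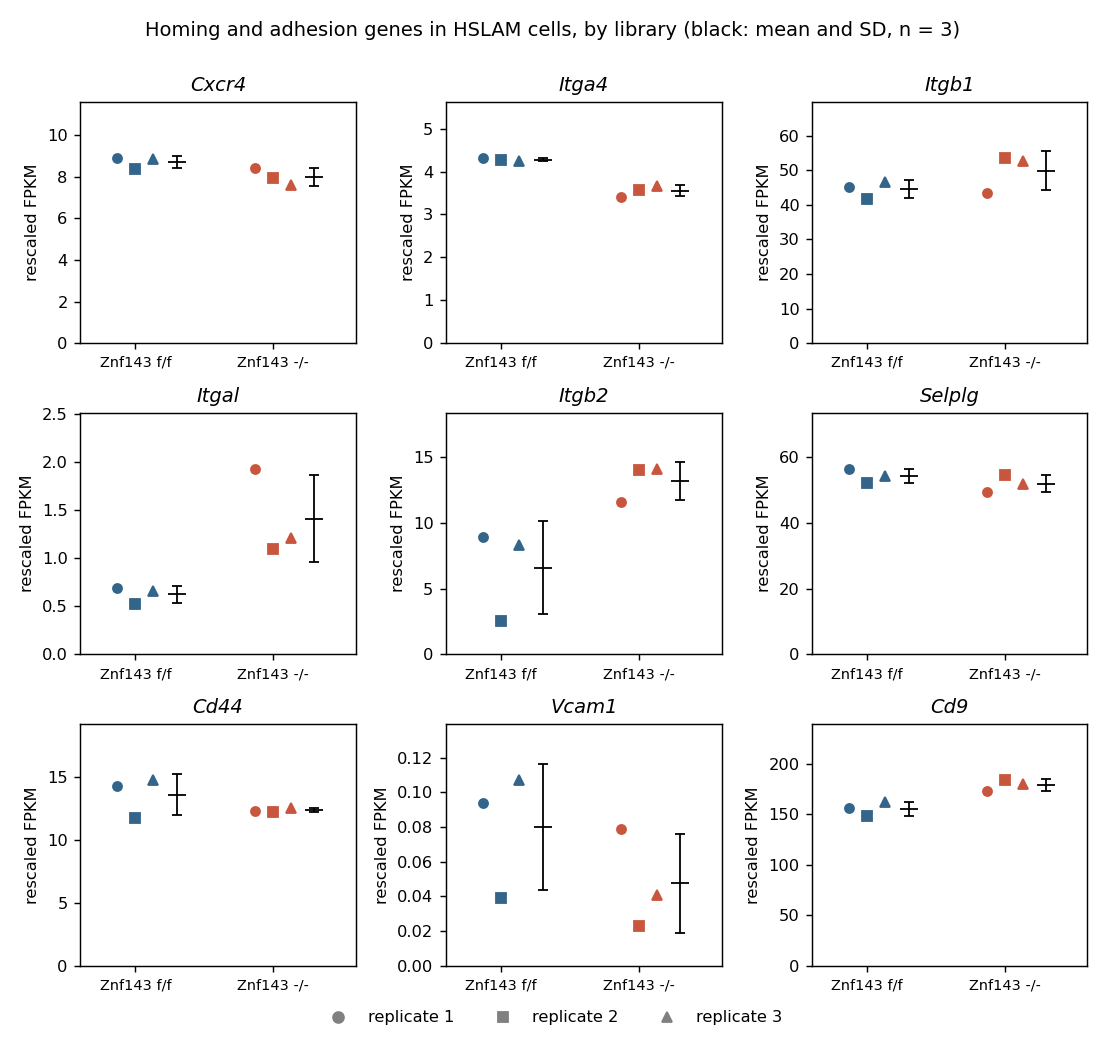
Rescaled FPKM of the 9 genes in each of the 3 Znf143 f/f (blue) and 3 Znf143 -/- (red) libraries, with marker shape giving the replicate and black bars the mean and SD. Itgal, Itgb2 and Cd9 are higher and Itga4 is lower in every Znf143 -/- library, and the control library 2 stands apart at 2.53 FPKM for Itgb2.

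The LFA-1 chains showed the widest difference between genotypes. Itgal (ENSMUSG00000030830.18, chr7:127296260-127335138, plus strand, GRCm38), the alpha chain, was at 0.696, 0.525 and 0.658 FPKM in the control libraries 1 to 3 and at 1.93, 1.09 and 1.21 FPKM in the Znf143 -/- libraries 1 to 3. The groups did not overlap, and the first Znf143 -/- library was the highest of the 6. These values rest on counts of 170 to 563 fragments. Its log2 fold change was 1.02 (SE 0.25, 95% interval 0.43 to 1.62 before adjustment, adjusted p = 0.063).

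Over the 19279 genes, 5.99% passed an adjusted p of 0.05, against 0 of the 8 members tested with limma. Of these 8, 4 (Itgal, Itga4, Itgb2 and Cd9) had an unadjusted p under 0.05, as had 24.2% of all genes tested. Itgal passed the threshold in 2 alternative fits. On FPKM as deposited its adjusted p was 0.049, in a fit that called 4.32% of genes, and with limma's voom on recovered fragments it was 0.044, in a fit that called 7.27%. With the close libraries averaged it was 0.348. A two-sided exact permutation test gave p = 0.1 for Itgal, as for Itgb2, Cd9 and Itga4, which is the smallest p that 3 libraries against 3 can give.

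Itgb2 (ENSMUSG00000000290.13, chr10:77530252-77565708, plus strand), the beta chain of LFA-1 and of the other leukocyte beta-2 integrins, was at 8.89, 2.53 and 8.32 FPKM in the control and at 11.5, 13.9 and 14.1 FPKM in the Znf143 -/- libraries. The groups did not overlap, and the second control library was far below the other two. This gave a log2 fold change of 1.18 (SE 0.46, 95% interval 0.09 to 2.27 before adjustment, adjusted p = 0.180). That library decides the size of the difference. Without it the log2 fold change was 0.60 and passed the threshold (adjusted p = 0.036), in a fit that called 11.6% of all genes. That fit left control replicates 1 and 3, the close pair, as the only control libraries. With the close libraries averaged the log2 fold change was 1.42 (adjusted p = 0.463). Control library 2 was also the highest in erythroid markers. Its Car1, a carbonic anhydrase of erythroid progenitors, was at 141 FPKM against 15.1 and 21.8 FPKM in the other control libraries. The part of control library 2 in the Itgb2 value was not tested.

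The summed levels of several marker lists of other cells also did not overlap between genotypes, though some sums came mostly from few genes. The sort took lineage-negative cells without CD48, a gate meant to remove mature neutrophils and T cells. The summed level of 8 neutrophil markers was 42.1 to 79.7 FPKM in control and 123 to 152 FPKM in Znf143 -/- libraries, with 6 of the 8 at a mean of at least 1 FPKM and 5 of the 8 called. Most of that sum is S100a8, which was called (adjusted p = 0.041), and S100a9, which was not (adjusted p = 0.108). Ly6g, which defines mature neutrophils, was at 0, 0 and 0.024 FPKM in control and at 0.048, 0.216 and 0.182 FPKM in Znf143 -/- libraries, and was too low to test. Cd48, whose protein was gated out by the sort, rose from a range of 9.56 to 11.1 FPKM to a range of 19.6 to 20.4 FPKM (log2 fold change 0.97, adjusted p = 0.003). Of the 5 genes found for this gate (CD48 and lineage), Cd48 was the 1 called. Itgam had means of 0.161 FPKM in control and 0.147 FPKM in Znf143 -/- cells (adjusted p = 0.913). Cd4 had means of 0.160 and 0.258 FPKM (adjusted p = 0.457), and Cd3e, at 0.010 and 0.026 FPKM, was too low to test.

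The summed level of T and NK cell markers was 2.46 to 2.68 FPKM in control and 3.55 to 5.94 FPKM in Znf143 -/- libraries, with 1 of 5 at a mean of at least 1 FPKM, 0 called by limma and Cd3g at 0 in all control libraries. The summed megakaryocyte markers were at 556 to 640 and 698 to 1041 FPKM, with 6 of 6 at a mean of at least 1 FPKM and 1 of 6 called (Gp5). Most of that sum is Pf4, which did not pass the test (adjusted p = 0.261). Summed erythroid markers were at 71.4 to 242 FPKM in control and 66.2 to 71.3 FPKM in Znf143 -/- libraries (7 of 8 at a mean of at least 1 FPKM, 1 called). The highest erythroid sum, in control library 2, was mostly Car1 at 141 FPKM. Endothelial markers were at 75.7 to 82.4 and 83.0 to 94.2 FPKM (3 of 6 at a mean of at least 1 FPKM, 0 called by limma). Most of the endothelial sum is Egfl7, which did not pass the test (adjusted p = 0.239). The summed macrophage (16.4 to 20.4 and 19 to 23.9 FPKM), B cell (42.7 to 51.5 and 41.1 to 47.7 FPKM) and stromal markers (1.95 to 3.41 and 1.55 to 4.86 FPKM) overlapped between genotypes. Most of the macrophage sum is Cd68 (adjusted p = 0.379), and most of the B cell sum is Cd79b (adjusted p = 0.839). Of the 6 macrophage markers found, Csf1r was the 1 called (adjusted p = 0.031). Csf1r was at 0.005, 0 and 0.014 FPKM in control and at 0.185, 0.262 and 0.196 FPKM in Znf143 -/- libraries. Of the B cell and stromal markers, 0 were called. The part of these cells in the Itgal and Itgb2 values was not tested.

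The VLA-4 chains did not move together. Itga4 (ENSMUSG00000027009.18, chr2:79255426-79333123, plus strand), whose promoter is printed above, was at 4.32, 4.26 and 4.25 FPKM in the control and at 3.41, 3.56 and 3.67 FPKM in the Znf143 -/- libraries. The control libraries had a coefficient of variation of 0.97% and all lay above the Znf143 -/- libraries. Itga4 had a log2 fold change of -0.26 (SE 0.10, 95% interval -0.49 to -0.03 before adjustment, adjusted p = 0.159). On FPKM as deposited the groups overlapped and the log2 fold change was -0.15. Its exons overlap those of Cerkl on the opposite strand, which was at 0.699 FPKM in control and 1.00 FPKM in Znf143 -/- cells on average, and reads of the 2 genes cannot be told apart by strand where they overlap.

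Itgb1 (ENSMUSG00000025809.15, chr8:128685654-128733200, plus strand), the beta chain shared by VLA-4 and several other integrins, was at 45.3, 41.7 and 46.7 FPKM in the control and at 43.3, 53.7 and 52.8 FPKM in the Znf143 -/- libraries. The first Znf143 -/- library lay among the controls and the other two lay above them. For Itgb1 the log2 fold change was 0.16 (SE 0.11, 95% interval -0.10 to 0.42, adjusted p = 0.428).

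**Figure D2:**
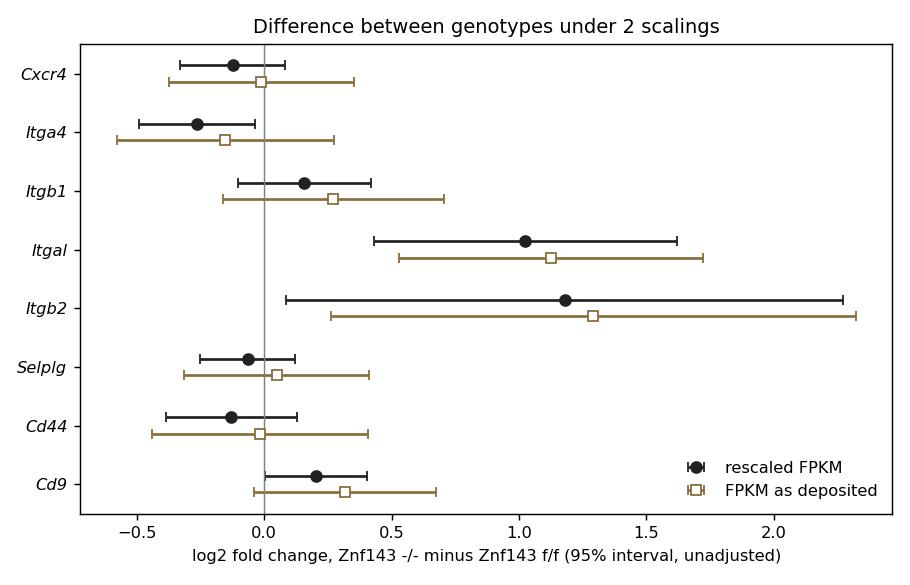
Log2 fold change, Znf143 -/- minus Znf143 f/f, of the 8 members tested, with limma's 95% intervals before adjustment, on rescaled FPKM (black circles) and on FPKM as deposited (open squares). The deposited scale shifts all 8 upward, and Selplg moves from -0.06 to 0.05.

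Ratios between chains within a library do not depend on how libraries are scaled. They were chosen after the values were seen, so they are described without a test. Itgb1 exceeded Itga4 by 10.47, 9.80 and 10.99 times in the control and by 12.7, 15.1 and 14.4 times in the Znf143 -/- libraries, and the groups did not overlap. Itgb2 exceeded Itgal by 12.8, 4.82 and 12.6 times in the control and by 5.97, 12.8 and 11.6 times in the Znf143 -/- libraries, and the groups overlapped. The control library 2, with low Itgb2, and the Znf143 -/- library 1, with high Itgal, stood apart from the other 4. Between the integrins, the ratio of the alpha chains Itgal to Itga4 was 0.161, 0.123 and 0.155 in the control and 0.566, 0.307 and 0.330 in the Znf143 -/- libraries. The ratio of the beta chains Itgb2 to Itgb1 was 0.196, 0.061 and 0.178 in the control and 0.266, 0.260 and 0.267 in the Znf143 -/- libraries. Both ratios were higher in every Znf143 -/- library, as follows for Itgal to Itga4 from the levels of the chains.

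**Figure D3:**
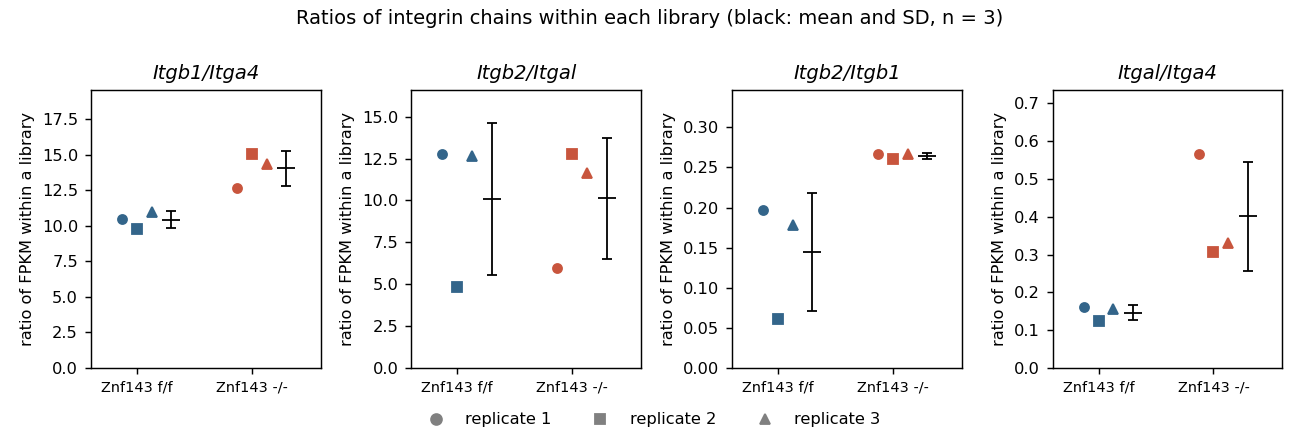
Ratios of FPKM between integrin chains within each Znf143 f/f (blue) and Znf143 -/- (red) library, with marker shape giving the replicate and black bars the mean and SD. Itgb1/Itga4, Itgb2/Itgb1 and Itgal/Itga4 are higher in all 3 Znf143 -/- libraries, while Itgb2/Itgal overlaps with means of 10.1 in both genotypes.

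Cd9 (ENSMUSG00000030342.8, chr6:125460266-125494791, minus strand), the most abundant member, was at 156, 149 and 162 FPKM in the control and at 173, 184 and 180 FPKM in the Znf143 -/- libraries. All 3 Znf143 -/- libraries were above all controls. Their mean log2 difference was 0.20 (SE 0.08, 95% interval 0.004 to 0.40 before adjustment, adjusted p = 0.201), and the groups overlapped on FPKM as deposited. Its exons overlap those of Gm26728 on the opposite strand, which had at most 34 fragments in a library against 12259 or more for Cd9.

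The receptor of the CXCL12 gradient showed little difference. Cxcr4 (ENSMUSG00000045382.6, chr1:128588199-128592293, minus strand) was at 8.93, 8.38 and 8.86 FPKM in the control and at 8.44, 7.96 and 7.60 FPKM in the Znf143 -/- libraries. Only the first Znf143 -/- library reached into the control range. With limma the log2 fold change was -0.12 (SE 0.09, 95% interval -0.33 to 0.08, adjusted p = 0.438), and it was -0.01 on FPKM as deposited.

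The ligand Cxcl12 was not tested, at a mean below 0.1 FPKM. It was listed at 0 in control libraries 1 and 3, and at most 11 fragments were found in any library.

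Selplg (ENSMUSG00000048163.13, chr5:113818536-113832644, minus strand) was at 56.4, 52.2 and 54.3 FPKM in the control and at 49.5, 54.4 and 51.9 FPKM in the Znf143 -/- libraries. Both genotypes overlapped, at a log2 fold change of -0.06 (SE 0.08, 95% interval -0.25 to 0.12, adjusted p = 0.662), and its sign turned on FPKM as deposited (0.05).

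Cd44 (ENSMUSG00000005087.17, chr2:102811141-102901665, minus strand) was at 14.3, 11.8 and 14.8 FPKM in the control and at 12.3, 12.2 and 12.6 FPKM in the Znf143 -/- libraries. Control libraries 1 and 3 were above, and control library 2 was below, all Znf143 -/- libraries. Its log2 fold change was -0.13 (SE 0.11, 95% interval -0.39 to 0.13, adjusted p = 0.517).

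Vcam1 (ENSMUSG00000027962.14, chr3:116109949-116129688, minus strand), the ligand of VLA-4, was at 0.094, 0.039 and 0.107 FPKM in the control and at 0.079, 0.023 and 0.041 FPKM in the Znf143 -/- libraries. The groups overlapped, and only 10 to 42 fragments per library lie behind these values. Its mean was under the minimum of 0.1 FPKM, so it was not tested. Its exons overlap those of Gm43109 on the opposite strand. Without that minimum the log2 fold change was -0.28 (SE 0.25, adjusted p = 0.537), and a difference was not detectable at this depth.

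Other genes of homing and adhesion were taken from a list of 110 in 7 roles, of which 100 were found in the table and 86 were tested. Of these, 7 were called, 6 higher and 1 lower in Znf143 -/- cells, or 8.14% against 5.99% of all genes tested. The median log2 fold change over the 86 was 0.08, against 0.01 over all genes tested and 0.05 over the 8 members tested. Calls fell in 3 roles, which were the other integrin chains (2 of 13 tested), the selectins with their carriers and glycosyltransferases (3 of 13) and the tetraspanins and partners (2 of 10). In the chemokine axis (14 tested), integrin activation and linkage to actin (19), hyaluronan and ERM linkers (6) and immunoglobulin and cadherin adhesion (11) limma called 0 genes. Leaving out 1 library gave a count over the list of 11 (without Znf143 -/- library 1), 13 (without control library 2) or 1 to 2 (without any of the other 4), and with the close libraries averaged it was 1.

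Cd53, a tetraspanin of leukocytes, rose the most of the called genes. It was at 11.8, 11.6 and 12.1 FPKM in the control and at 84.8, 57.8 and 62.4 FPKM in the Znf143 -/- libraries, and the groups were far apart, with a log2 fold change of 2.50 (SE 0.15, adjusted p = 7.04e-04). It was the 1 gene of the 7 that passed in all 16 alternative fits, with an adjusted p of 0.027 when the close libraries were averaged. Cd151, a tetraspanin that binds laminin-receptor integrins, was at 5.80, 5.17 and 5.94 FPKM in the control and at 9.87, 8.88 and 8.01 FPKM in the Znf143 -/- libraries (log2 fold change 0.65, SE 0.11, adjusted p = 0.026). It passed in 10 of the 16, and not with the close libraries averaged (adjusted p = 0.283). The member Cd9, of the same family, had a log2 fold change of 0.20.

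Of the other integrin chains, Itgb7, which pairs with ITGA4 to form the receptor for the gut addressin MAdCAM-1, was at 4.86, 6.00 and 4.90 FPKM in the control and at 9.83, 9.60 and 10.2 FPKM in the Znf143 -/- libraries. Every Znf143 -/- library was above every control, with a log2 fold change of 0.90 (SE 0.11, adjusted p = 0.008), and it passed in 12 of the 16 alternatives, but not with the close libraries averaged (adjusted p = 0.208). Itgb3, the beta chain of the platelet fibrinogen receptor and of the vitronectin receptor, was at 3.56, 2.92 and 3.67 FPKM in the control and at 4.86, 5.75 and 5.59 FPKM in the Znf143 -/- libraries (log2 fold change 0.66, SE 0.13, adjusted p = 0.038). It passed in 7 of the 16, and not with the close libraries averaged (adjusted p = 0.385). The median log2 fold change of the 13 integrin chains tested was 0.38, with 10 above 0, as were 9765 of the 19279 genes tested. That median was the value of a chain with 40 to 87 fragments per library that was not called (adjusted p = 0.417).

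Of the selectin group, the sulfotransferase Tpst1, which modifies tyrosines such as those of PSGL-1, was at 9.66, 9.30 and 10.1 FPKM in the control and at 11.98, 13.8 and 13.7 FPKM in the Znf143 -/- libraries (log2 fold change 0.44, SE 0.09, adjusted p = 0.044). The sialyltransferase St3gal6 was at 1.97, 2.27 and 2.11 FPKM in the control and at 3.07, 4.51 and 4.37 FPKM in the Znf143 -/- libraries (log2 fold change 0.86, SE 0.17, adjusted p = 0.039). Both were higher in every Znf143 -/- library. Fut7, the fucosyltransferase that builds sialyl Lewis x on selectin ligands, was the 1 gene of the list called lower. It was at 14.2, 14.2 and 14.0 FPKM in the control and at 11.2, 9.22 and 9.47 FPKM in the Znf143 -/- libraries (log2 fold change -0.51, SE 0.10, adjusted p = 0.037). These 3 calls passed in 6 (Tpst1), 7 (St3gal6) and 8 (Fut7) of the 16 alternatives, and none of them passed on FPKM as deposited or with the close libraries averaged. Their carrier Selplg showed no difference of that size, with a 95% interval of -0.25 to 0.12.

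**Figure D4:**
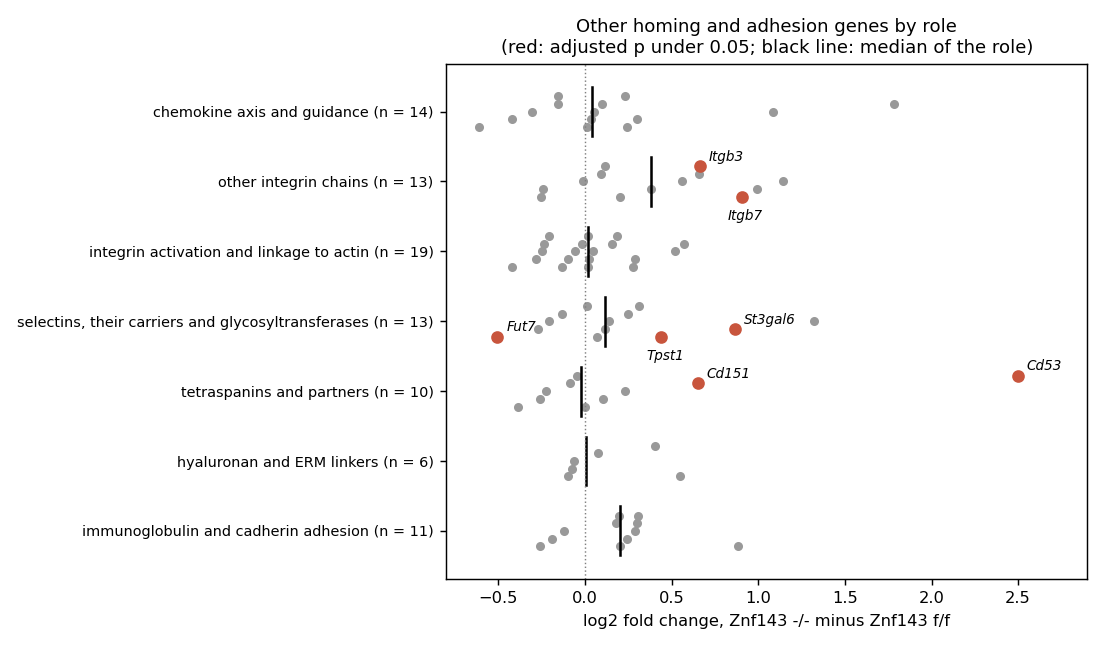
Log2 fold change, Znf143 -/- minus Znf143 f/f, on rescaled FPKM of the 86 other homing and adhesion genes tested, by role, with a black line at the median of each role. Red points are the 7 genes with an adjusted p under 0.05, from Fut7 at -0.51 to Cd53 at 2.50.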

How the data were processed

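RNA-seq of HSLAM cells in 6 libraries was analysed from 1 table, and the 19 ChIP-seq and HiC samples were not analysed here. The deposited FPKM of each library were made by the authors with TrimGalore (adaptors), STAR (alignment to GRCm38) and FeatureCounts (fragments per gene). Their deposited columns of mean count, fold change, standard error, test statistic and p-values hold their own comparison and were not used.

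Fragments recovered from FPKM times gene length were whole, within 0.05, for 138677 of 138696 values, so library totals are known. To compare libraries, FPKM were divided by median-of-ratios factors taken over the 19046 genes above 0 in all libraries, because Znf143 -/- replicates 2 and 3 share the divisor 48378188. Genes with a mean of at least 0.1 were tested on log2(rescaled FPKM + 0.1) with limma 3.58.1 in R 4.3.3 (eBayes with a variance trend, Benjamini-Hochberg adjustment over all genes tested). The pseudocount understates changes of low genes. The exact permutation test was two-sided. The fit was tested on simulated libraries that were independent and had the same dispersion for every gene. They held no close pairs, so that test cannot speak to the effect of the close pairs on the calls. Coordinates came from GENCODE M21 and promoters from RefSeq, with 5 of the 9 members matched. Library preparation (SMART-Seq v4, Nextera XT) keeps no strand. Motifs, members, marker and pathway lists were chosen with earlier results of these data known. Some genes of the pathway list are not reported here and enter none of its counts. Named beside the 9 members were Zfp143, Cxcl12 and the listed pathway genes with an adjusted p under 0.05, and markers where their values stand beside a result. Ctcf was named after its values were seen, to check the labels.

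The mice are described as pairs of littermates, but which libraries form a pair is not given in the sources used here, so the replicate number was not used as a block. Alternatives were the scaling (deposited FPKM, own totals), pseudocounts of 0.01 and 1, no filter, a mean of at least 1 FPKM, voom, no variance trend, the replicate block, each library left out and, added after the data were seen, close libraries averaged.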

Additional observations from a re-analysis of the deposited data

How the results depend on the processing

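All 8 members tested kept their direction in the 16 alternatives, except Selplg, whose log2 fold change turned from -0.06 to 0.049 on FPKM as deposited. The count of members called moved from 0 to 1 on FPKM as deposited (Itgal), to 1 with voom (Itgal), and ranged from 0 to 1 with each library left out (Itgb2 without control library 2). With the replicate block, genes called fell from 1154 to 191, members called stayed at 0 and pathway genes called fell from 7 to 1. The mice were pairs of littermates, but no source used here says that the replicate numbers mark these pairs. Same-numbered libraries deviated from their genotype means with correlations of -0.168, -0.143 and 0.093, and differently numbered ones with correlations of -0.121 to 0.164. With 3 libraries per genotype, these values cannot show which libraries form pairs. With the close libraries averaged, 47 genes, 0 members and 1 pathway gene were called. Leaving out each library gave 223 to 2241 genes and 1 to 13 pathway genes, with the highest counts without control library 2 (2241 and 13) or Znf143 -/- library 1 (2108 and 11). Pathway genes called were 3 on FPKM as deposited, 4 on own totals and 12 with voom. The deposited scale moves the median log2 fold change of all genes to 0.11. The causes of these shifts were not tested. Of the members and pathway genes named, Vcam1 (10 to 42 fragments per library) and Cxcl12 (at most 11) have too few fragments for a comparison. The markers Ly6g, Cd3g and Cd3e were also too low to test.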
